A study of Sus scrofa with 6 samples.

Results

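The genes of the proteasome were compared between the abdominal aortas of 3 male Wuzhishan pigs fed the HFCF diet, rich in fat, cholesterol and fructose, and 3 male Wuzhishan pigs fed normal chow (NC), both for 6 months. The labels give the animals as 3 to 4 months old, which is less than their age by the study's methods, and each library came from the total RNA of 1 pig, prepared with an mRNA kit. The genes were chosen by name, as protein-coding genes whose symbol starts with PSMA, PSMB, PSMC, PSMD, PSME, PSMF or PSMG and a digit, without the inducible subunits PSMB8 and PSMB9. This gave 42 of the 30477 genes in the file. They were 13 genes of the core (6 of the alpha ring and 7 of the beta ring), 17 genes of the cap (9 of the base and 8 of the lid), 5 activators and inhibitors, 5 assembly chaperones, and 2 genes, PSMC3IP and PSME3IP1, whose products carry the name of a partner and are not parts of the proteasome. The name-based choice left out PSMA1, PSMA2, PSMB6 and PSMD9, 4 subunits that the file lists by identifier with a description, and their values are given apart. PSMB5 was not analysed here.

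The proteasome is the protease that degrades proteins tagged with ubiquitin in the cytosol and the nucleus. Its core is a barrel in which outer alpha rings form the gate and inner beta rings hold the catalytic sites, and its cap, made of a base and a lid, binds, unfolds and deubiquitinates the substrates. In cells exposed to interferon, and constitutively in many immune cells, the inducible subunits PSMB8, PSMB9 and PSMB10 take the places of PSMB5, PSMB6 and PSMB7, and the activator made of PSME1 and PSME2 can bind the core in place of the cap. In the artery wall, the contractile cells of the media and the leukocytes of a plaque both carry proteasomes.

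Expression was given as FPKM, fragments scaled to the length of the gene and to the mapped reads of the library, which allows levels of different genes to be compared. Differences are log2 fold changes of log2(FPKM + 0.1), HFCF minus NC, tested with limma over 15384 genes. A gene was called at a Benjamini-Hochberg adjusted p under 0.05 over all of them. The FPKM values summed to 272207 to 287141 in NC and to 330222 to 338690 in HFCF, and over all tested genes the log2 fold changes had a median of 0.32, so differences are also given relative to that median. It was 0.09 after rescaling to a common sum (TPM), -0.003 after median-ratio scaling and -0.07 after quantile normalization. Read depth relative to NC pig 1, estimated from the commonest ratio of FPKM values up to 0.3, came to 1.09 and 1.37 in the other NC pigs and 1.03 to 1.07 in HFCF. One mitochondrial ribosomal RNA gene read 0.295 to 0.686 FPKM in NC and 140.7 to 205.7 FPKM in HFCF, and the other one in the file read 112.8 to 372.5 FPKM in NC and 101 to 130.5 FPKM in HFCF. The summed FPKM of 7 macrophage markers was 20.6 to 21.4 in NC and 487.9, 198.6 and 198.7 in HFCF pigs 1 to 3, with all 7 called higher and none at 0. The summed FPKM of 7 smooth muscle markers was 15169 to 21395 in NC and 7664 to 12406 in HFCF, with 5 called lower. Of all tested genes, 22.8% were called higher and 6.16% lower. The part of these shifts in the results on the proteasome was not tested. In whole tissue, fewer cells of a type and less RNA per cell cannot be told apart.

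In the FPKM as deposited, most of the tested core subunits were called higher in HFCF. The cap subunits were divided between 3 that were called higher and 14 that did not pass the test. Under the other scalings fewer core subunits were called. Of the 42 genes, 40 were tested, since PSMA8, an alpha subunit known from the testis, and PSMB11, a beta subunit known from the thymus, were listed at 0 in all 6 pigs. Of the 40, 13 were called higher in HFCF and 0 lower (limma); the other 27 did not pass. Over all tested genes 22.8% were called higher and 6.16% lower. Called higher were 7 of the 11 core genes tested, 3 of 17 cap genes, 1 of 5 activators and inhibitors, 1 of 5 assembly chaperones and 1 of the 2 partner genes. The median log2 fold change was 0.60 for the core and -0.01 for the cap, which is 0.28 above and 0.33 below the median of all genes. For all 40 genes it was 0.34, or 0.02 above that of all genes. The sign of this last median turned with the scaling (0.08 in TPM, -0.01 with median-ratio scaling), and that of the core and the cap medians stayed. With the core subunits known by description added, 8 of 14 tested core genes were called higher, with a median log2 fold change of 0.55.

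**Figure D1:**
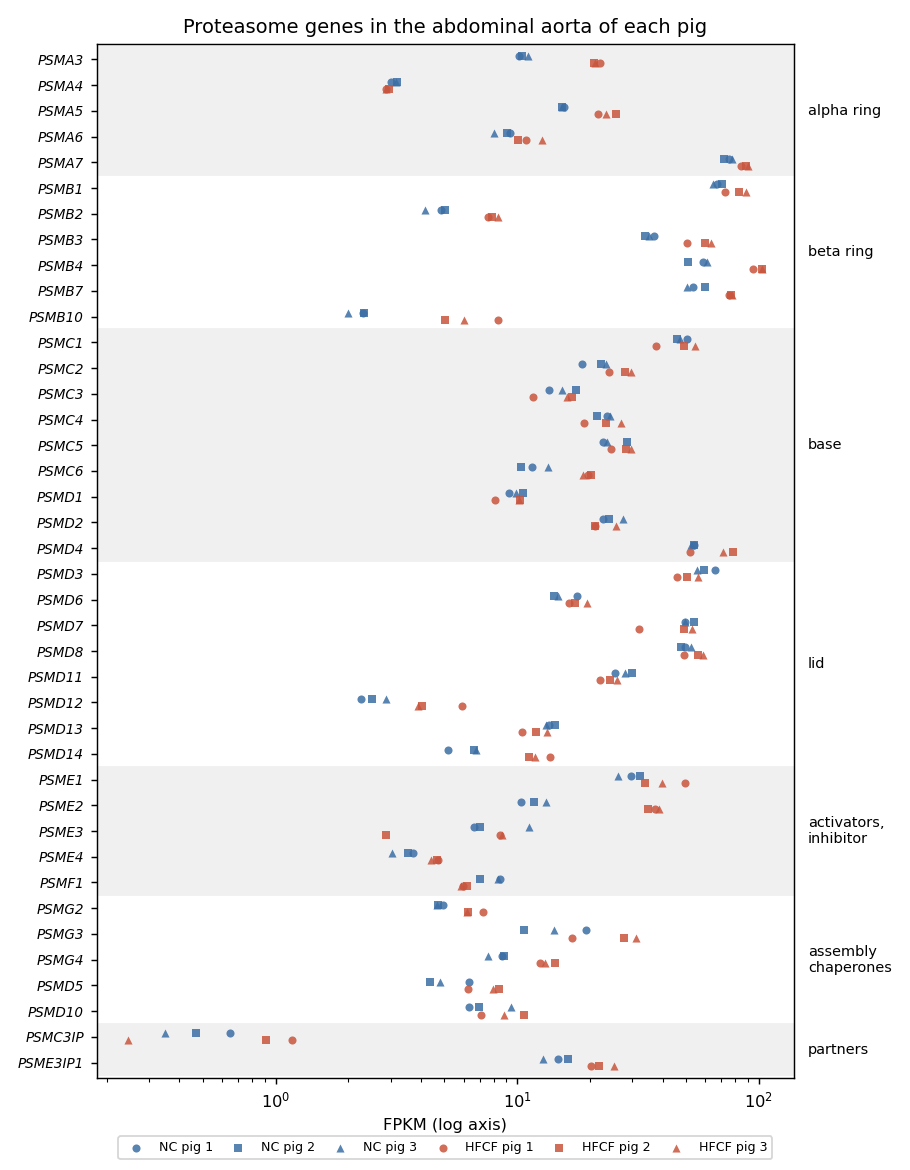
FPKM (x axis, log scale) of the 40 tested proteasome genes (rows, grouped by particle), with 1 point for each of the 3 NC pigs (blue) and the 3 HFCF pigs (red), the marker shape giving the pig's number within its group. On the FPKM as deposited, every HFCF point lies above every NC point for the 6 beta-ring genes shown and 4 of 17 cap genes. This was so for 36.1% of all tested genes. PSMB6, a beta subunit known by its description alone, is not shown, and its groups overlapped.

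The number of proteasome genes called higher fell further in TPM and with median-ratio scaling than on the omission of any single pig. In TPM, 5 proteasome genes were called higher and 2 lower, against 14.5% and 9.93% of all genes. With median-ratio scaling, 4 were called higher and 4 lower, against 13.2% and 12.8%. With quantile normalization, 8 were called higher and 2 lower, against 11.4% and 11.6%. The core had 3, 2 and 5 genes called higher under these scalings, with 1 called lower, PSMA4 under quantile normalization. The cap had 1, 1 and 2 called higher and 1, 3 and 0 called lower. Core medians were 0.34, 0.25 and 0.42, and cap medians -0.27, -0.37 and -0.14. PSMA3, PSMB10, PSMD14 and PSME2 were called higher under all 3 scalings and in the 12 other limma alternatives. Without HFCF pig 2, the number called higher fell to 8, the same number as with quantile normalization.

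**Figure D2:**
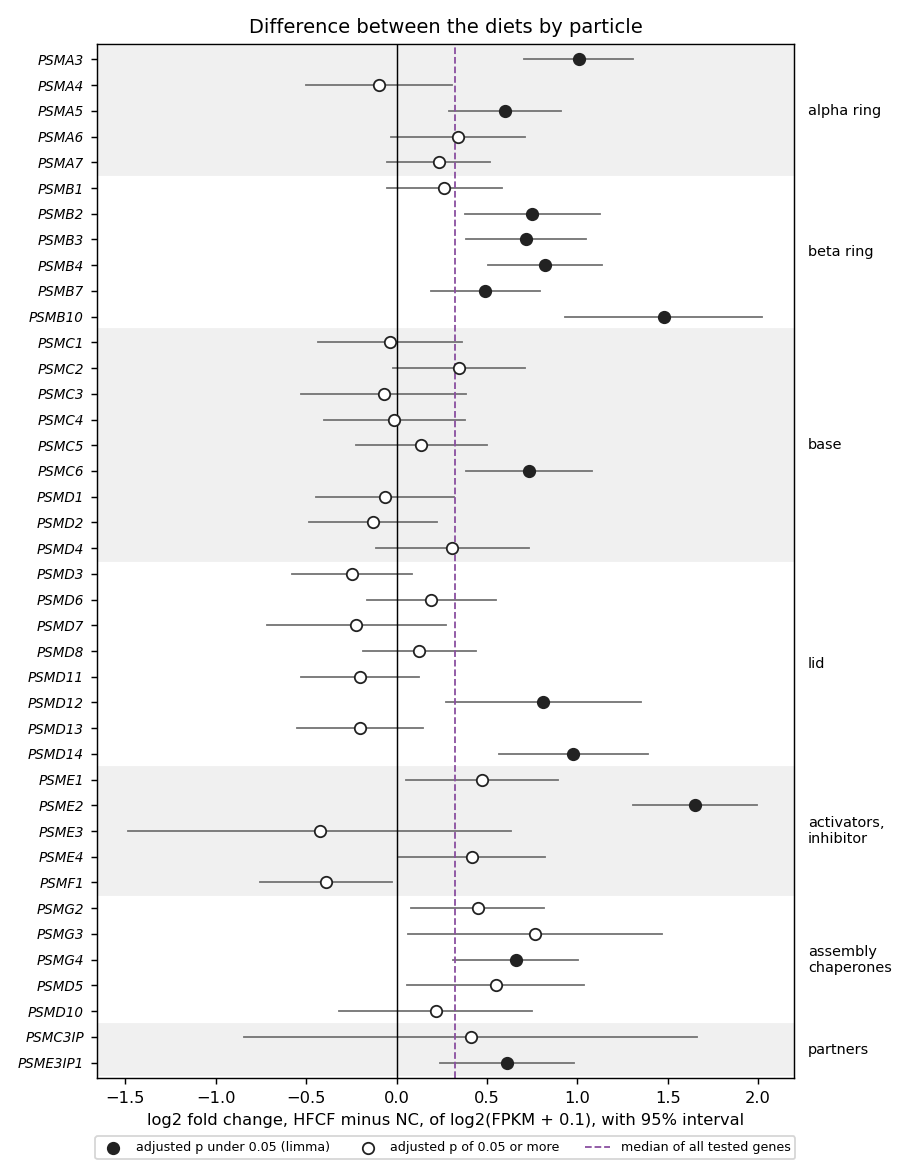
Log2 fold change of log2(FPKM + 0.1), HFCF minus NC, with its 95% interval (x axis) for each tested proteasome gene (rows, grouped by particle); filled circles have a limma adjusted p under 0.05, the solid line is 0 and the dashed line is the median of all tested genes, 0.32. The 13 filled circles all lie to the right of the dashed line, and 13 of the 17 cap genes lie to its left; the line itself moves to 0.09 in TPM.

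In the alpha ring, whose subunits shape the entry gate of the core, 2 of 5 tested genes rose, against 22.8% of all genes. PSMA3 measured 10.2, 10.5 and 11.1 FPKM in NC and 22.1, 20.9 and 21.1 FPKM in HFCF, a log2 fold change of 1.01 (SE 0.13, limma adjusted p = 0.00285). PSMA5 measured 15.7, 15.4 and 15.3 FPKM in NC and 21.6, 25.6 and 23.4 FPKM in HFCF, a log2 fold change of 0.60 (SE 0.13, limma adjusted p = 0.0163). For both, each HFCF pig lay above each NC pig. PSMA5 lost its call in TPM and with median-ratio scaling, at limma adjusted p-values of 0.113 and 0.22. PSMA3 overlaps another gene in RefSeq's annotation of the Sscrofa11.1 assembly, and whether the counting used strand is not given in the sources used here.

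The other 3 alpha genes did not pass. PSMA7, with the highest FPKM of the ring, measured 71.9 to 77.3 in NC and 84.6 to 90.1 in HFCF, a log2 fold change of 0.23 (limma adjusted p = 0.186). PSMA6 had a log2 fold change of 0.34 (limma adjusted p = 0.148), and its row carries the description of another gene, the protein-only RNase P. PSMA4 measured 3.00 to 3.19 FPKM in NC and 2.86 to 2.96 FPKM in HFCF, so the groups did not overlap although the log2 fold change was only -0.10 (95% interval -0.50 to 0.31). Among the alpha subunits known by description, PSMA2 rose from 13.7, 12.9 and 16.0 to 26.2, 27.9 and 27.9 FPKM, a log2 fold change of 0.95 (SE 0.14, limma adjusted p = 0.0047). PSMA1 measured 10.4 to 11.9 FPKM in NC and 10.4 to 11.8 FPKM in HFCF, a log2 fold change of 0.04 (limma adjusted p = 0.836). Thus subunits that occupy single places in 1 ring differed between the diets by amounts from -0.10 to 1.01 on the log2 scale.

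In the beta ring, 5 of 6 tested genes rose, against 22.8% of all genes. In all 6 the lowest HFCF pig lay above the highest NC pig, as it did in 36.1% of all tested genes. In TPM 2 of the 6 were called higher, with median-ratio scaling 1 and with quantile normalization 3. PSMB10, the inducible subunit with trypsin-like activity, had the largest difference. It measured 2.30, 2.33 and 1.99 FPKM in NC and 8.33, 5.02 and 6.01 FPKM in HFCF, a log2 fold change of 1.48 (SE 0.23, limma adjusted p = 0.00539). PSMB10 was highest in HFCF pig 1. PSMB7, the constitutive subunit whose place PSMB10 takes, measured 53.5, 60.1 and 50.4 FPKM in NC and 75.5, 77.2 and 77.6 FPKM in HFCF, a log2 fold change of 0.49 (SE 0.13, limma adjusted p = 0.0291). The 3 HFCF pigs were nearly level for PSMB7. PSMB7 was not called in 9 of the 15 alternatives, where the log2 fold change stayed positive and the limma adjusted p reached 0.472 with median-ratio scaling.

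PSMB1, PSMB2, PSMB3 and PSMB4 have no catalytic site of their own. PSMB4 measured 59.1, 51.0 and 60.9 FPKM in NC and 94.4, 103.6 and 103.7 FPKM in HFCF, a log2 fold change of 0.82 (SE 0.13, limma adjusted p = 0.00625). PSMB2 measured 4.84, 5.02 and 4.17 FPKM in NC and 7.56, 7.85 and 8.37 FPKM in HFCF, a log2 fold change of 0.75 (SE 0.16, limma adjusted p = 0.0143). PSMB3 rose by a log2 fold change of 0.71 (SE 0.14, limma adjusted p = 0.0115). PSMB2 lost its call under all 3 other scalings (limma adjusted p = 0.0607 in TPM, 0.111 with median-ratio scaling and 0.126 with quantile normalization). PSMB3 lost it in TPM (limma adjusted p = 0.0663) and with median-ratio scaling (limma adjusted p = 0.128), and PSMB4 with median-ratio scaling (limma adjusted p = 0.0541). Among the HFCF pigs, all 3 were highest in pig 3 and lowest in pig 1. PSMB1 had a log2 fold change of 0.27 (95% interval -0.05 to 0.58) and did not pass. PSMB6, the constitutive subunit with caspase-like activity, was known by its description alone and was among the genes with the highest FPKM of the core. It measured 74.0, 75.6 and 71.4 FPKM in NC and 64.7, 77.7 and 89.9 FPKM in HFCF, groups that overlapped, with a log2 fold change of 0.06 (95% interval -0.31 to 0.43).

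In the base of the cap, the ring that unfolds the substrate, 1 of 9 genes rose, against 22.8% of all tested genes. PSMC6, 1 of its 6 ATPases, measured 11.6, 10.4 and 13.4 FPKM in NC and 19.7, 20.3 and 18.7 FPKM in HFCF, a log2 fold change of 0.73 (SE 0.15, limma adjusted p = 0.0124). Each HFCF pig lay above each NC pig. The call was lost in TPM (limma adjusted p = 0.0696) and with median-ratio scaling (limma adjusted p = 0.1). PSMC2, another of the ATPases, also had groups that did not overlap, at 18.6 to 23.4 FPKM in NC and 24.0 to 29.6 FPKM in HFCF, but its log2 fold change of 0.35 did not pass (limma adjusted p = 0.138). The other 4 ATPases, PSMC1, PSMC3, PSMC4 and PSMC5, had log2 fold changes of -0.07 to 0.14 and overlapping groups. For PSMC4 the 95% interval was -0.40 to 0.38. The scaffold subunits PSMD1 and PSMD2 had log2 fold changes of -0.06 and -0.13. PSMD4, a ubiquitin receptor, measured 53.9, 53.8 and 52.7 FPKM in NC and 51.7, 78.6 and 71.3 FPKM in HFCF, so that pig 1 of HFCF lay below all NC pigs and the other HFCF pigs above them.

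In the lid, which removes ubiquitin from the substrate, 2 of 8 genes rose, near the 22.8% of all tested genes. PSMD14, the lid's deubiquitinase, measured 5.18, 6.63 and 6.78 FPKM in NC and 13.7, 11.2 and 11.9 FPKM in HFCF, a log2 fold change of 0.98 (SE 0.17, limma adjusted p = 0.00822). PSMD12, a structural subunit, measured 2.25, 2.51 and 2.87 FPKM in NC and 5.89, 4.02 and 3.89 FPKM in HFCF, a log2 fold change of 0.81 (SE 0.23, limma adjusted p = 0.0371). Both were highest in HFCF pig 1, which had the lowest FPKM of the HFCF pigs in 13 of the 17 cap genes. Of the 15 limma alternatives, 11 left PSMD12 without a call, including the omission of each of the 6 pigs, at limma adjusted p-values up to 0.263. PSMD14 overlaps TBR1 in the RefSeq annotation and PSMD12 overlaps no other gene.

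The 6 other lid genes had overlapping groups. PSMD3, PSMD7, PSMD11 and PSMD13 had log2 fold changes of -0.25, -0.22, -0.20 and -0.20, and PSMD6 and PSMD8 of 0.19 and 0.13. PSMD7, the partner with which PSMD14 forms the active dimer, measured 49.6, 54.0 and 49.4 FPKM in NC and 31.8, 49.3 and 53.0 FPKM in HFCF, so HFCF pig 1 alone was low. PSMD3 was called lower in TPM (limma adjusted p = 0.045), and PSMD3, PSMD11 and PSMD13 were called lower with median-ratio scaling. These 3 genes were all lowest in HFCF pig 1 and highest, among the HFCF pigs, in pig 3.

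Among the activators and inhibitors, PSME2 rose and the other 4 did not pass. PSME2, the beta subunit of the interferon-inducible activator, measured 10.4, 11.8 and 13.2 FPKM in NC and 37.4, 34.8 and 38.9 FPKM in HFCF, a log2 fold change of 1.65 (SE 0.14, limma adjusted p = 0.000961). This was the largest difference of the 40 genes, and its SE was the smallest of the 5 genes in the class. PSME1, the alpha subunit of the same activator, measured 29.7, 32.2 and 26.1 FPKM in NC and 49.4, 34.0 and 39.8 FPKM in HFCF, a log2 fold change of 0.47 (SE 0.18, limma adjusted p = 0.0867). The PSME1 groups did not overlap, but its HFCF pigs were spread more widely than those of PSME2.

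PSME3, which forms a nuclear activator, measured 6.62, 7.04 and 11.2 FPKM in NC and 8.53, 2.87 and 8.65 FPKM in HFCF, so that HFCF pig 2 alone was low and the log2 fold change of -0.43 had a 95% interval of -1.48 to 0.63. PSME4, the large monomeric activator of the nucleus, measured 3.69, 3.54 and 3.02 FPKM in NC and 4.68, 4.64 and 4.42 FPKM in HFCF, a log2 fold change of 0.42 (limma adjusted p = 0.11). PSMF1, which inhibits the core in vitro, measured 8.46, 7.05 and 8.33 FPKM in NC and 5.97, 6.22 and 5.88 FPKM in HFCF. Each HFCF pig lay below each NC pig, with a log2 fold change of -0.39 (95% interval -0.75 to -0.03, limma adjusted p = 0.0985). PSMF1 was called lower in TPM (limma adjusted p = 0.0291), with median-ratio scaling (limma adjusted p = 0.0171) and with quantile normalization (limma adjusted p = 0.0209).

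Of the assembly chaperones, which guide the building of the core and the base, PSMG4 rose. It measured 8.68, 8.84 and 7.57 FPKM in NC and 12.4, 14.4 and 13.0 FPKM in HFCF, a log2 fold change of 0.66 (SE 0.15, limma adjusted p = 0.0171). The call was lost under each of the 3 scalings. PSMG2, another chaperone of the core, had groups that did not overlap and a log2 fold change of 0.45 (limma adjusted p = 0.0686), and PSMG3 had 0.76 with overlapping groups (limma adjusted p = 0.0956). The base chaperones PSMD5, PSMD10 and, known by its description, PSMD9 had log2 fold changes of 0.55, 0.22 and 0.23, none of which passed. Of the partner genes, PSME3IP1 rose by a log2 fold change of 0.61 (SE 0.16, limma adjusted p = 0.0277), a call that 9 of the 15 alternatives did not give. PSMC3IP, a factor of meiotic recombination, lay between 0.246 and 1.17 FPKM and did not pass.

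Without a test, 20 of the 40 genes had all HFCF pigs above all NC pigs and 2, PSMA4 and PSMF1, had all HFCF pigs below, against 36.1% and 12.1% of all genes. The 20 included 10 of 11 core genes and 4 of 17 cap genes. The study's methods name a fold change above 2 or below 0.5 and a p-value under 0.05. These thresholds were applied here to the ratio of mean FPKM and limma's unadjusted p, so the calls are not the study's own. The thresholds called 3 proteasome genes higher and 0 lower, against 20.7% and 4.82% of all genes. The 3 were PSMA3, PSMB10 and PSME2. With limma, 0 genes passed in the lower direction at an adjusted p under 0.05, and at an unadjusted p under 0.05 1 did, PSMF1.

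The core and the cap were also set against each other within each library, where the scaling of the library cancels out. The geometric mean FPKM of the 11 tested core genes was 16.8, 16.7 and 16.1 in NC and 24.7, 24.8 and 26 in HFCF. That of the 17 cap genes was 19.7, 20.7 and 20.9 in NC and 20.4, 23.2 and 24.4 in HFCF. The ratio of core to cap was 0.851, 0.806 and 0.770 in NC and 1.21, 1.07 and 1.07 in HFCF, so every HFCF pig lay above every NC pig. Without PSMB10 the ratio was 1.04, 0.982 and 0.950 in NC and 1.35, 1.25 and 1.23 in HFCF, again without overlap. Adding the core subunits known by description gave core geometric means of 17.8, 17.7 and 17.5 in NC and 25.2, 25.5 and 27 in HFCF. The beta ring relative to the lid gave 1.17, 1.12 and 1.05 in NC and 1.75, 1.66 and 1.65 in HFCF. The alpha ring relative to the base gave 0.598, 0.563 and 0.551 in NC and 0.785, 0.655 and 0.650 in HFCF. These ratios are descriptions of chosen genes and carry no test.

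**Figure D3:**
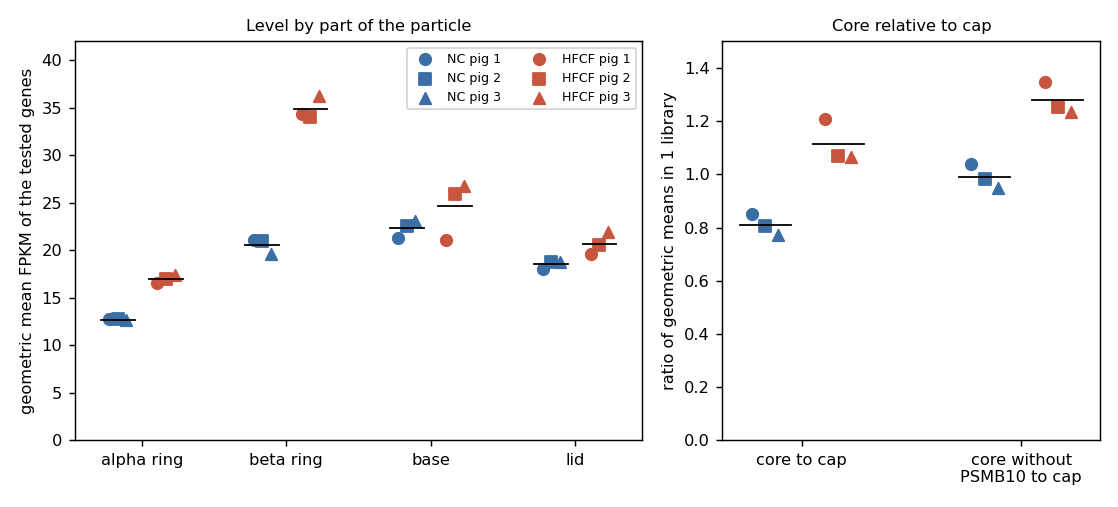
Left, geometric mean FPKM of the tested genes of the alpha ring, beta ring, base and lid (y axis) for each NC pig (blue) and HFCF pig (red), with marker shapes for pigs 1, 2 and 3 and a black line at the group mean. Right, the core's geometric mean divided by the cap's in each library, with and without PSMB10; the core to cap ratio lies at 0.770 to 0.851 in NC and at 1.07 to 1.21 in HFCF.

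The genes within a particle were not expressed at 1 level in either group. Mean FPKM of the core genes spanned 33.9-fold in NC, from PSMB10 at 2.21 to PSMA7 at 74.8, and 34.7-fold in HFCF, from PSMA4 at 2.90 to PSMB4 at 100.6. The cap genes spanned 23.7-fold in NC, from PSMD12 at 2.54 to PSMD3 at 60.3, and 14.6-fold in HFCF, from PSMD12 at 4.60 to PSMD4 at 67.2. HFCF pig 1 had the lowest FPKM of the HFCF pigs in 8 of 11 core genes and 13 of 17 cap genes, while it was the highest of them in 2 of each, PSMA3 and PSMB10 in the core and PSMD12 and PSMD14 in the cap. Of the 5 activators and inhibitors it was the lowest in 0 and the highest in 2. The median log2 difference of the 40 genes from the NC mean was 0.21 in HFCF pig 1, 0.39 in pig 2 and 0.38 in pig 3.

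Pairs of subunits were compared within a library. As a percentage of its constitutive counterpart PSMB7, PSMB10 was 4.29, 3.87 and 3.95 in NC and 11.0, 6.50 and 7.75 in HFCF, a difference of 0.99 in the mean log2 ratio. PSMB9, the inducible counterpart of PSMB6, was 2.67, 2.60 and 3.40 percent of PSMB6 in NC and 23.3, 8.94 and 8.41 percent in HFCF, a log2 difference of 2.02. After the values had been seen, the ratio was also formed for 2 pairs whose products join in 1 complex. PSME2 was 34.8, 36.5 and 50.4 percent of PSME1 in NC and 75.6, 102.5 and 97.6 percent in HFCF, a log2 difference of 1.18. PSMD14 was 10.5, 12.3 and 13.7 percent of PSMD7 in NC and 43.1, 22.7 and 22.4 percent in HFCF, a log2 difference of 1.20. In all 4 pairs every HFCF pig lay above every NC pig. The exact two-sided permutation test gave p = 0.1 for each (0.1 after adjustment over the 4), which is the smallest that 3 against 3 pigs allow. For the 2 pairs formed after the values had been seen, this p is not a test, since their genes were known to differ. In 3 of the pairs HFCF pig 1 was the highest of the 6 pigs, and in PSME2 to PSME1 it was the lowest of the HFCF pigs.

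**Figure D4:**
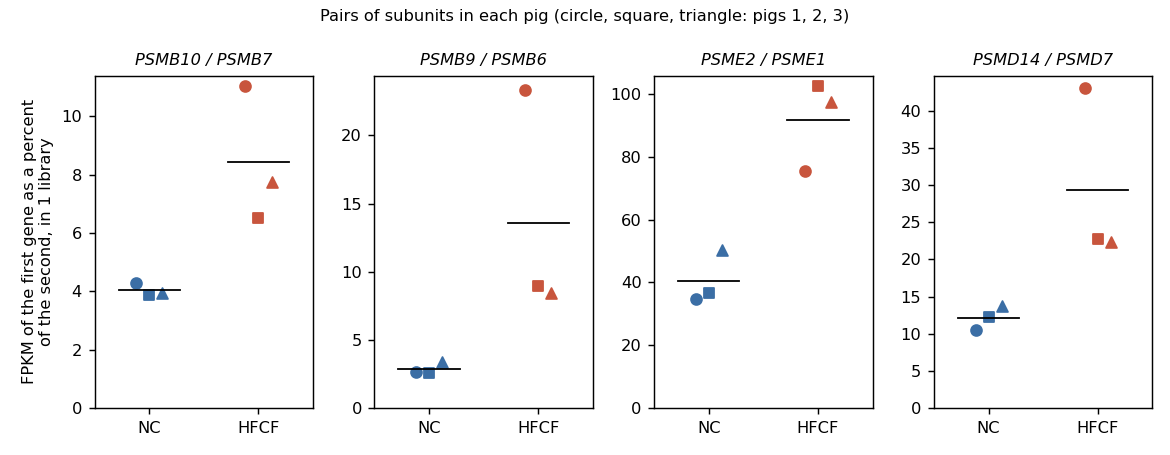
FPKM of 1 subunit as a percentage of the FPKM of another in the same library (y axes, each starting at 0) for the NC and HFCF pigs, with circles, squares and triangles for pigs 1, 2 and 3 and a black line at the group mean. The HFCF points lie above the NC points in all 4 pairs, and HFCF pig 1 stands apart for PSMB9 to PSMB6 (23.3 percent) and PSMD14 to PSMD7 (43.1 percent).

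Other genes of the ubiquitin-proteasome pathway were taken from a list of 37, of which 34 were found and tested. Of these, 7 rose, or 20.6%, near the 22.8% of all genes, and 3 fell, against 6.16% of all genes. Their median log2 fold change was 0.24, which is 0.09 below that of all genes, and its sign turned to -0.02 in TPM, -0.12 with median-ratio scaling and -0.06 with quantile normalization. In TPM, 6 and 4 genes of the list were called higher and lower, against 14.5% and 9.93% of all genes. With median-ratio scaling the counts were 6 and 7, against 13.2% and 12.8%. With quantile normalization they were 6 and 3, against 11.4% and 11.6%. The inducible core subunits PSMB8 and PSMB9 were among the 7 that rose. PSMB9 measured 1.98, 1.97 and 2.43 FPKM in NC and 15.1, 6.95 and 7.56 FPKM in HFCF, a log2 fold change of 2.08 (SE 0.31, limma adjusted p = 0.0049). PSMB8 measured 5.11, 7.87 and 9.27 FPKM in NC and 26.7, 19 and 18.6 FPKM in HFCF, a log2 fold change of 1.54 (SE 0.26, limma adjusted p = 0.00692). Both were highest in HFCF pig 1. POMP, the chaperone on which the beta ring is assembled, measured 3.97, 5.87 and 5.61 FPKM in NC and 12.9, 12.9 and 12.6 FPKM in HFCF, a log2 fold change of 1.31 (SE 0.19, limma adjusted p = 0.00411). PSMB8, PSMB9 and POMP kept their calls in all 15 limma alternatives.

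UBB, a gene of polyubiquitin, measured 404.6, 404.8 and 274.4 FPKM in NC and 1168, 1020 and 823.7 FPKM in HFCF, a log2 fold change of 1.48 (SE 0.23, limma adjusted p = 0.00519). RPS27A, which encodes ubiquitin fused to a ribosomal protein, rose by a log2 fold change of 0.98 (limma adjusted p = 0.00474), and reads of ubiquitin genes may be shared among near-identical copies. Of 52 tested genes of cytosolic ribosomal proteins, 35 were called higher, against 22.8% of all genes. The median log2 fold change of those 52 genes was 0.93, near that of RPS27A. The cap-bound deubiquitinases UCHL5 and USP14 rose by log2 fold changes of 1.04 and 0.57 (limma adjusted p = 0.00716 and 0.0353). UCHL5 kept its call under the 3 other scalings, and USP14 lost it under all 3 (limma adjusted p = 0.202 in TPM, 0.334 with median-ratio scaling and 0.129 with quantile normalization). Among the genes that fell, UBA1, the main ubiquitin-activating enzyme, measured 118.3, 97.4 and 110.7 FPKM in NC and 60.3, 64.9 and 62.5 FPKM in HFCF, a log2 fold change of -0.79 (SE 0.13, limma adjusted p = 0.00683). NPLOC4, a cofactor of the segregase VCP, measured 26.9, 28.3 and 26.8 FPKM in NC and 16.8, 18.5 and 21.0 FPKM in HFCF (log2 fold change -0.55, limma adjusted p = 0.0266). UBA1 and NPLOC4 kept their direction and their call under the 3 other scalings. NFE2L1, the transcription factor that induces proteasome genes when proteasome activity falls, had a log2 fold change of -0.29 (limma adjusted p = 0.149), with each HFCF pig below each NC pig. It was called lower in TPM (log2 fold change -0.55, limma adjusted p = 0.0335) and with median-ratio scaling (-0.64, limma adjusted p = 0.0178). NFE2L2, a factor of the oxidative stress response, had a log2 fold change of 2.09 with overlapping groups (limma adjusted p = 0.0747).

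Values of other cell types were set beside these results. Of all tested genes, 22.8% were called higher and 6.16% lower. Among the T cell markers 1 of 5 was called higher, near that share. Their sum was 0.732 to 0.906 FPKM in NC and 10.0, 3.05 and 2.41 FPKM in HFCF pigs 1 to 3. CD3G went the other way, at 0 in HFCF pig 1 and highest in HFCF pig 2, at 1.13 FPKM. Among the markers of dividing cells 2 of 4 were called higher. Their sum was 0.106 to 1.32 FPKM in NC and 2.85 to 7.58 FPKM in HFCF. Of the 3 red cell markers found none was called, and their sum was 2897 FPKM in HFCF pig 1 against 22.0 to 178.7 FPKM in the other 5 pigs, with AHSP at 0 in some. The sums of endothelial (76.5 to 197.2 FPKM), fibroblast (1848 to 4241 FPKM) and adipocyte markers (3.81 to 120.9 FPKM) overlapped between the groups. Of these markers, 0 of 5, 1 of 5 and 0 of 4 genes were called. Adipocyte markers summed to 73.3, 120.9 and 3.81 FPKM in NC pigs 1 to 3 and 12.3, 5.58 and 17.1 FPKM in HFCF. CKM, the 1 skeletal muscle marker found, read 0.633 to 4.21 FPKM and was not called. HFCF pig 1 had the highest sums of macrophage, T cell, dividing cell, red cell and endothelial markers and the lowest sum of smooth muscle markers. Their part in the differences of PSMB8, PSMB9, PSMB10 and PSMD14 was not tested. Without HFCF pig 1, PSMB10 and PSMD14 had log2 fold changes of 1.28 and 0.90 (limma adjusted p = 0.0127 and 0.0234). Summed macrophage markers were still 198.6 and 198.7 FPKM in HFCF pigs 2 and 3, so this omission does not test the part of cell types.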

How the data were processed

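Abdominal aorta libraries of 6 pigs, 3 per group, were analysed, with 1 library per pig. Per the labels, the authors trimmed reads with cutadapt 1.9, checked them with FastQC and aligned them with HISAT2, and the study's methods name the Sscrofa10.2 build and StringTie for the FPKM. The deposited values are FPKM per gene, with 1 column per pig. Values of 0.0001 were read as 0. A sum of FPKM that differs between groups shifts all fold changes together, and read counts are not given, so the relative depth is an estimate from the spacing of low FPKM values, resting on 33 to 117 genes per pig.

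Genes with a mean of at least 0.1 FPKM over the 6 pigs were kept (15384 of 30477, of which 8661 were at 0 in all pigs). log2(FPKM + 0.1) was fitted with limma 3.58.1 in R 4.3.3 (lmFit, eBayes with a trend, diet as the only term), with Benjamini-Hochberg adjustment over all genes. Fold changes on this scale understate those of low genes. Tested on simulated data of this comparison (15384 genes, 200 of them changed), the fit recovered 0 at a log2 change of 1, 108 at 2 and 157 at 4, with at most 12 false calls. Far more genes were called in the pigs, 22.8% higher and 6.16% lower. The adjustment was less strict there, so these recoveries do not carry over to the pigs. Ratios within a library were compared with an exact two-sided permutation test. Alternatives were pseudocounts of 1 and 0.01, no filter, a filter at 1 FPKM, 3 scalings, no trend, a replicate block, the omission of each pig and the study's thresholds. Members and lists were chosen with earlier results of these data known.

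Named with values in each pig were the catalytic subunits, the activators and inhibitors, and in each class up to 3 called genes in each direction with the largest log2 fold change. Of the pathway list, PSMB8, PSMB9 and up to 4 called genes in each direction were named. Other genes were named after their values were seen. The 4 subunits without a symbol were named from the file's descriptions, and 3 of them also match the gene name table. RefSeq's annotation of Sscrofa11.1 was used for overlaps between genes, with 41 members found and 11 overlapping another gene. The planned ratio of PSMB8 to PSMB5 was not made, since PSMB5 was not analysed here. 1 gene of the pathway list is counted but not reported here by name.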

Additional observations from a re-analysis of the deposited data

How the results depend on the processing

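The number of proteasome genes called higher was 13 as reported, 5 in TPM, 4 with median-ratio scaling, 8 with quantile normalization, 7 with the replicate block and 3 with the study's thresholds, and 8 to 14 without 1 pig (8 without HFCF pig 2). The number called lower was 0 as reported and 2, 4 and 2 under these 3 scalings. Core genes called higher went from 7 to 3 in TPM, 2 with median-ratio scaling and 4 with the replicate block, and 1 was called lower with quantile normalization. Cap genes called higher went from 3 to 1 in TPM and 1 with median-ratio scaling, where 1 and 3 were called lower. Activators and inhibitors called went from 1 to 2 under each scaling, the added gene being PSMF1, lower. Assembly chaperones called went from 1 to 0 under each scaling and with the replicate block, and ranged from 0 (without HFCF pig 2) to 2 (without HFCF pig 1). The median log2 fold change of the 40 genes was 0.34 as reported, 0.0842 in TPM, -0.012 with median-ratio scaling and 0.124 with quantile normalization. By construction these scalings remove part of the shift shared by all genes. The log2 difference of PSMB10 to PSMB7 was 0.99 as reported and 0.71 with a pseudocount of 1. Including the 4 subunits known by description, an alternative chosen after seeing the data, gave 14 called higher.

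Pigs with the same number did not deviate together (correlations 0.0206, -0.0795 and -0.0724), so the numbers were not taken to pair the pigs, and the calls lost under the replicate block were PSMA5, PSMB2, PSMB7, PSMD12, PSMG4 and PSME3IP1. With 3 pigs per group, 1 library of each and no read counts, p-values cover the spread among these pigs only, and the counting error behind each FPKM is not known. PSMB8 to PSMB5 was not run.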
